A study of Mus musculus with 36 samples.

Results

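The genes described here are 8 members of the proneural basic helix-loop-helix (bHLH) cascade: Neurog1, Neurog2, Atoh1, Neurod1, Neurod4, Hes6, Nhlh1 and Nhlh2. They were taken by name, as the rows of the deposited mouse count and abundance tables whose Ensembl gene ID carries one of these symbols. All 8 were found, among 51912 gene IDs. Polyadenylated RNA was sequenced from HM1 cells, a mouse embryonic stem cell line, at days 0, 0.5, 1, 1.5, 2, 2.5, 3, 3.5, 4, 5, 6 and 7 of differentiation toward motor neurons, with 3 replicates at each time and 36 libraries in all. Before day 0 the cells of every group had been grown in bFGF and then in bFGF with CHIR99021, a Wnt pathway agonist, and SB431542 and DMH1, inhibitors of TGF-beta family receptors, and the labels give their state at the start as neuromesodermal progenitors. From day 0 the medium held 100 nM retinoic acid (RA) and 500 nM of SAG, a Smoothened agonist that activates Sonic hedgehog signalling. The day 0 libraries are the ones labelled as control. No group of the later days without RA and SAG was analysed here, so time in culture and the treatment cannot be told apart. HM1 is 1 line. The labels call the replicates bioreps but do not say whether they were separate cultures. The p-values therefore measure only the spread between these samples, which may be technical.

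Proneural factors bind E-boxes, CANNTG sites in DNA, as dimers with the widely expressed E proteins, and they start neuronal differentiation in progenitors of the neural tube while inducing Delta ligands that hold back neighbouring cells. In the spinal cord Neurog1 and Neurog2 act in progenitors of several domains, the motor neuron domain included, and Atoh1 in the most dorsal progenitors. Neurod1, Neurod4, Nhlh1 and Nhlh2 are known to follow in cells that are leaving the cell cycle, and Hes6 is a bHLH-Orange protein that opposes the repressor Hes1. Hes, Hey and Id proteins counteract the proneural factors.

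Nhlh1 and Nhlh2 are themselves bHLH genes and, in these cultures, reached 50% of their highest mean after the neurogenins. At 10% of the highest mean, Nhlh1 and Neurog1 both came on at day 1. The sequence just before the start sites of Nhlh1 and Nhlh2 is shown beside that of Neurog1 and Neurog2. Each is the stretch upstream of the start sites of both RefSeq and GENCODE, taken from RefSeq promoter windows on GRCm38.p6 that run from 250 bases before to 50 bases after a start, with E-boxes in capitals and all other bases in lower case. The stretches lie at chr13:56252181-56252430 on the minus strand for Neurog1, chr3:127632886-127633134 on the plus strand for Neurog2, chr1:172057597-172057846 on the minus strand for Nhlh1 and chr3:102009895-102010075 on the plus strand for Nhlh2.
Neurog1: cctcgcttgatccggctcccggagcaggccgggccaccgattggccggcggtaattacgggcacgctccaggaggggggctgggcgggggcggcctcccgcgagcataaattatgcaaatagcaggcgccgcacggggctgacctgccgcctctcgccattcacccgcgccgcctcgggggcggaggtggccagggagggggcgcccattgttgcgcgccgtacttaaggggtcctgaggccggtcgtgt
Neurog2: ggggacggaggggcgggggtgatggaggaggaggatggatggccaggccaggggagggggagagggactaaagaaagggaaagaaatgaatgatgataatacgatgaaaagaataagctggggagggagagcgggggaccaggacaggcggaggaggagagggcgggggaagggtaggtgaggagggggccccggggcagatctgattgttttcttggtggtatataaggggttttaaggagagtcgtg
Nhlh1: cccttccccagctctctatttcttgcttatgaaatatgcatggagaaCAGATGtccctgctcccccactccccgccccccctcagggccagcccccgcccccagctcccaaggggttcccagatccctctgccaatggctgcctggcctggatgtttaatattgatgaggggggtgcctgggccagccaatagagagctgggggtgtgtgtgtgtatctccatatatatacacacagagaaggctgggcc
Nhlh2: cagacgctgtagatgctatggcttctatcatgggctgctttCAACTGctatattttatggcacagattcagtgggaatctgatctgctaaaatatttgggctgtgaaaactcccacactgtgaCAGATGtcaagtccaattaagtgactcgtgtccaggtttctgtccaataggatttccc
The Nhlh1 and Nhlh2 stretches each held 1 CAGATG, an E-box form that neurogenins and NeuroD factors are known to bind, starting 203 bases before the end of the Nhlh1 stretch and 58 bases before the end of the Nhlh2 stretch. The Neurog1 and Neurog2 stretches held no E-box. Among the stretches not shown, those of Neurod4, which also came on late, held 0 E-boxes. The Neurod1 stretch held 1, CATATG, and the Hes6 stretch of 250 bases held 3. The stretches differ in length, with 135 bases for Neurod1 and 181 for Nhlh2. Whether the E-boxes bear on the order of onset, and what binds them, was not tested. Over the whole windows, which also hold bases after the start, Neurog1 had 1 E-box, CACTTG, and Neurog2 had 0. Neurod1 had 1, Nhlh1 2 and Nhlh2 4, the Neurod4 windows 1 (CAGCTG) and 0, and the Hes6 windows 1 and 3. CANNTG is its own reverse complement, so 1 strand covers both, and CAGATG was also searched as CATCTG and is one form of CANNTG. Also over whole windows, 72.3% of 32851 RefSeq promoters of this length held CANNTG and 17.2% held CAGATG, so neither is rare. RefSeq gave 10 windows for the 8 genes, and CAGATG lay only in those of Nhlh1 and Nhlh2.

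The libraries held between 26567321 and 35757989 expected counts, and mitochondrial genes took 0.949% to 1.92% of them. The labels call the cells neural progenitors. The summed abundance of 7 neural progenitor markers was between 313.1 and 327.7 TPM (transcript abundance scaled for length and depth) at day 0, with 5 of the 7 at 1 TPM or more, and between 2990 and 3103 TPM at day 7, with all 7 there. Markers of caudal epiblast (T, Nkx1-2, Cdx2 and Wnt3a) summed to 541.8 to 594.7 TPM at day 0 and to 0.94 to 2.06 TPM at day 7. The 6 neuronal markers summed to 70.4 to 72.8 TPM at day 1, their lowest, and to 2795 to 3003 TPM at day 5, their highest. The 4 motor neuron markers (Isl1, Mnx1, Lhx3 and Chat) summed to 5.74 to 5.90 TPM at day 0, 127.0 to 131.9 TPM at day 2.5 and 6.89 to 8.63 TPM at day 7. Markers of other cells moved as well. The 3 floor plate markers summed to 0.81 to 1.04 TPM at day 0 and 643.7 to 733.5 TPM at day 6, the 2 markers of V3 interneurons to 0.10 to 0.11 TPM at day 0 and 237.4 to 250.8 TPM at day 7, and the 3 endoderm markers, of which Cdh1 and Epcam are also made by pluripotent cells, to 308.8 to 323.5 TPM at day 0 and 3.36 to 5.18 TPM at day 7. Markers of pluripotent cells themselves (Pou5f1, Nanog and Zfp42) summed to 288.7 to 309.7 TPM at day 0 and 1.58 to 4.62 TPM at day 7. The 3 endothelial markers summed to 2.56 to 2.96 TPM at day 0 and 38.5 to 76.5 TPM at day 2.5, and the 5 sensory neuron markers to 5.29 to 6.78 TPM at day 0 and 47.5 to 53.9 TPM at day 3. The part of these cells in the levels below was not tested. In RNA from whole cultures, fewer cells of a type and less RNA per cell cannot be told apart.

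**Figure D1:**
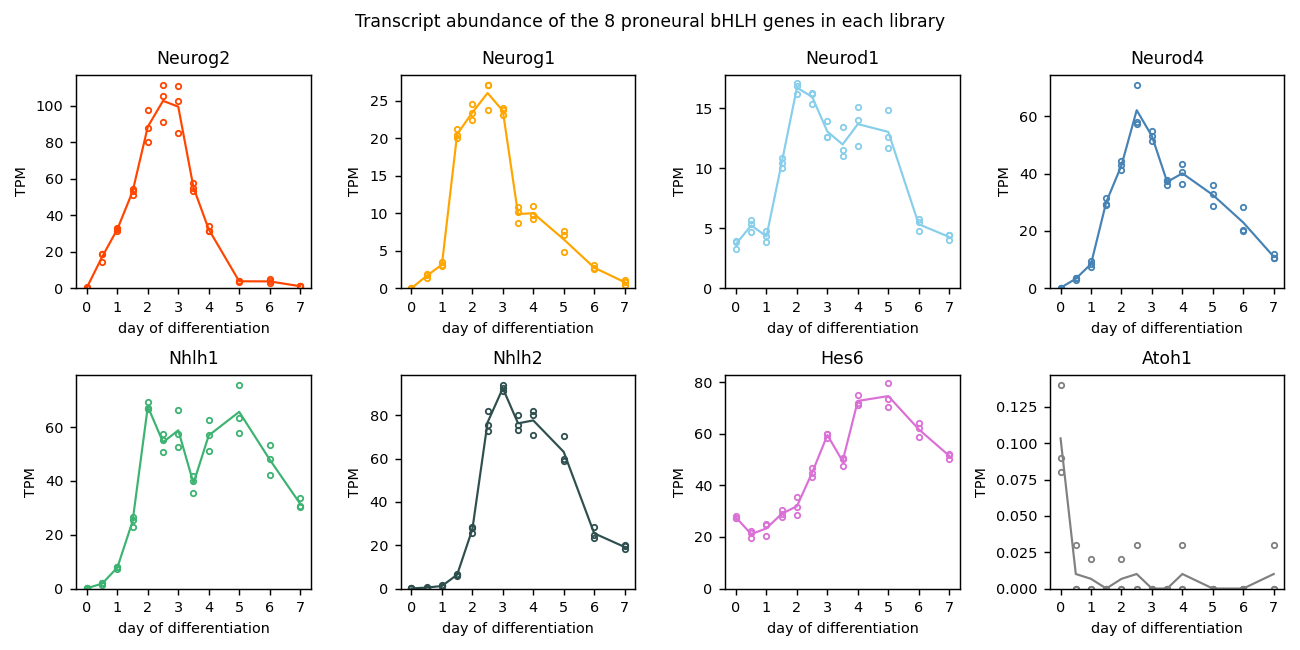
TPM (vertical axis, scaled per gene from 0) against day of differentiation (horizontal axis) for the 8 genes; circles are the 3 libraries of a time point and lines join their means. Neurog1 and Neurog2 reached 26.0 and 102.7 TPM at day 2.5 and were at 0.807 and 1.13 TPM at day 7, Neurod1, Neurod4, Nhlh1, Nhlh2 and Hes6 kept 17.7% to 69.0% of their highest mean there, and no library exceeded 0.14 TPM for Atoh1.

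Of the 8 genes, 7 came on, and their order of onset and order of loss matched only in part. With onset defined as the first time point at which the mean TPM reached 50% of the highest mean, Neurog1, Neurog2 and Neurod1 had their onset at day 1.5, Neurod4 and Nhlh1 at day 2, and Nhlh2 and Hes6 at day 2.5. Loss, the first time point after the highest mean that lay under 50% of it, came at day 3.5 for Neurog1, at day 4 for Neurog2, at day 6 for Neurod1, Neurod4 and Nhlh2, and at day 7 for Nhlh1. Hes6 did not fall under 50% by day 7. Interpolated between time points, the interval above 50% ran from day 1.28 to day 3.39 for Neurog1 and from day 1.46 to day 3.58 for Neurog2, against day 1.54 to day 5.16 for Neurod4, day 2.19 to day 5.45 for Nhlh2 and day 1.60 to day 6.86 for Nhlh1. The Neurod1 interval was day 1.33 to day 5.61. So Neurog1 and Neurog2 were the first of the 7 under 50% of their highest level, with each replicate number left out in turn and on the count scale as well.

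**Figure D2:**
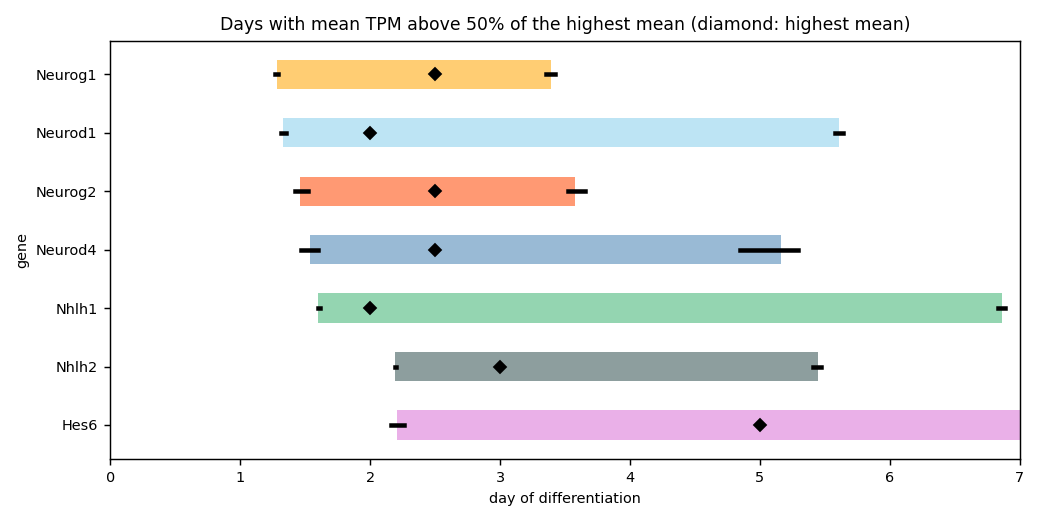
Interval of days (horizontal axis) in which the mean TPM of each gene (vertical axis, by onset) lay above 50% of its highest mean, interpolated between time points; black strokes give the range of each end when 1 replicate number is left out, and diamonds mark the day of the highest mean. The Neurog1 and Neurog2 bars end at day 3.39 and day 3.58, before those of the other genes, and the Hes6 bar runs on to day 7, the last time sampled.

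The order within the onset did not hold at every setting. With counts scaled by effective library size from the trimmed mean of M-values (TMM) in place of TPM, Neurod4 had its onset at day 1.5 and its loss at day 5. Without the libraries numbered 3, Neurog2 had its onset at day 2 and Neurod4 at day 1.5. Against 10% of the highest mean, Neurog2 was on at day 0.5, ahead of Neurog1, Neurod4 and Nhlh1 at day 1 and Nhlh2 at day 2, whereas Neurod1 and Hes6 were above that share from day 0. Neurog2 thus reached 10% of its highest mean before Neurog1, while both had reached 50% at day 1.5. Against 25% of the highest mean, Neurog2 was lost at day 5 and Neurog1 at day 6, still before Neurod4 and Nhlh2 at day 7. The Neurog1 mean of day 5, 6.52 TPM, lay almost exactly at that limit, with an interpolated loss at day 5.0. The interpolated intervals have no test.

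Neurog2 (chromosome 3, 127633135 to 127635631, plus strand, GRCm38, with 2 exons in GENCODE M21) is known to be expressed in motor neuron progenitors. Its 3 libraries held 18.6, 18.7 and 14.4 TPM at day 0.5, against 0.34, 0.37 and 0.54 TPM at day 0, and the groups did not overlap. In edgeR's quasi-likelihood test on the counts, fitted to all 36 libraries with p-values adjusted over 17990 genes, the log2 fold change of that step was 5.37 ± 0.21 (approximate SE, adjusted p = 5.1e-21), 41.3-fold. Neurog2 rose again in each of the next 3 steps, by 0.90, 0.76 and 0.59 on the log2 scale, to 88.5 ± 8.95 TPM at day 2 (SD, n = 3). It then levelled off. The libraries of day 2.5, with 111.6, 105.4 and 91.2 TPM, and those of day 3, with 102.4, 85.2 and 110.8 TPM, overlapped, and neither the step to day 2.5 (0.18 ± 0.09, adjusted p = 0.0995) nor the step to day 3 (-0.09 ± 0.09, adjusted p = 0.464) passed the test. The step to day 2.5 stayed short of the threshold in only 4 of 6 fits that left out a library of either day, with adjusted p down to 0.0234, so a small further rise is not settled. Neurog2 then fell in 3 successive steps: to 55.2 ± 2.04 TPM at day 3.5, to 32.3 ± 1.58 TPM at day 4 and to 3.81 ± 0.314 TPM at day 5. The last was the largest change in any of the 7 genes tested after day 0.5, at -3.05 ± 0.13 (adjusted p = 2.2e-18), 8.26-fold lower, with 3.87, 3.47 and 4.09 TPM at day 5 against 31.6, 34.1 and 31.1 TPM at day 4. The levels of day 6, at 2.67, 3.8 and 4.79 TPM, overlapped those of day 5. A further fall at day 7 (-1.73 ± 0.24, adjusted p = 1.7e-06) left a mean of 1.13 ± 0.127 TPM. That was 1.10% of the highest mean, yet above day 0 by 1.08 ± 0.38 on the log2 scale (adjusted p = 0.0088).

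Neurog1 (chromosome 13, 56250478 to 56252163, minus strand, 1 exon) was the lower of the 2 neurogenins chosen here. It had no count in any day 0 library and 39, 49 and 59 counts in those of day 0.5. Set against a limit of 3 counts in each day 0 library, the level that 0 counts allow, it was at least 16.3-fold higher. The level was 3.15 ± 0.279 TPM at day 1 and then 20.5 ± 0.613 TPM at day 1.5 (20.4, 21.2 and 20.03 TPM), and this step, 2.75 ± 0.14 (adjusted p = 1.1e-16), was the largest of the 7 genes between those days. Means of 23.4, 26.0 and 23.7 TPM followed at days 2, 2.5 and 3, with no step past the threshold among them. At day 3.5 Neurog1 had 8.66, 10.2 and 10.8 TPM, against 23.1, 23.8 and 24.1 TPM at day 3, and the groups were well apart (-1.26 ± 0.12, adjusted p = 1.9e-09, 2.40-fold lower). The step to day 4 did not pass the test (-0.10 ± 0.13, adjusted p = 0.593). Falls of -0.58, -1.35 and -1.75 followed at days 5, 6 and 7, and the last left 0.85, 1.14 and 0.43 TPM. Neurog1 thus fell by day 3.5 and paused, whereas Neurog2 kept falling through day 5.

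The ratio of Neurog1 to Neurog2, taken in each library, shows this difference in timing. Neurog1 over Neurog2 was 0.0986 ± 0.0293 at day 0.5 and 0.0972 ± 0.00614 at day 1, then 0.388 ± 0.0253 at day 1.5. It went down to 0.179 ± 0.0179 at day 3.5 and up to 1.70 ± 0.288 at day 5 (each n = 3). At day 5 all 3 libraries had more Neurog1 than Neurog2 per transcript, with ratios between 1.39 and 1.96, and in the other libraries of days 0.5 to 6 the ratio was below 1. These are ratios of levels, and the steps between them have no test.

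Atoh1 (chromosome 6, 64729125 to 64731245, plus strand, 1 exon) is the proneural gene of the dorsal-most interneuron progenitors. It had 4, 3 and 5 counts in the day 0 libraries. The 33 later libraries held 6 counts in all, 1 each in 6 libraries. Its highest level in any library was 0.14 TPM, at day 0, and it failed the filter on low counts, so it has no main test. In the counts of the first step, 1 at day 0.5 against 12 at day 0, the ratio per library size was 0.0832, with an exact 95% interval of 0.00195 to 0.563 that covers counting error only. Counts this low do not separate absence from a level under about 3 counts per library. Markers of the interneurons that arise from Atoh1 progenitors, Barhl1, Barhl2, Lhx2 and Lhx9, summed to 0.60 to 2.36 TPM over all 36 libraries.

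Neurod4 (chromosome 10, 130268152 to 130280240, minus strand, 2 exons) was more abundant than Neurod1 in the mean from day 1 on, and less abundant at days 0 and 0.5. Both are known as targets of the neurogenins. Neurod4 had 3.68, 2.81 and 3.45 TPM at day 0.5, against 0.19, 0.18 and 0.08 TPM at day 0 (4.44 ± 0.29, adjusted p = 1.1e-14, 21.7-fold). The day 0 levels rest on 13, 10 and 5 counts, and with 1 library left out this change ranged from 4.16 to 4.67. Each further step to day 2.5 passed the test as a rise, the largest being 1.87 ± 0.10 between day 1 and day 1.5. The highest mean, 62.1 ± 7.73 TPM, was that of day 2.5, and 1 library there, at 71.1 TPM, lay above the other two at 58.1 and 57.3 TPM. Without replicate 3 of day 2.5 the mean of the other two was 57.7 TPM, and day 2.5 was still the highest. Neurod4 then declined in stages, to 37.1 ± 0.82 TPM at day 3.5, with 40.1 ± 3.42 TPM at day 4, 22.9 ± 4.78 TPM at day 6 and 11.01 ± 0.804 TPM at day 7. The steps to day 3 (-0.27 ± 0.09, adjusted p = 0.0162), day 3.5 (-0.52), day 6 (-0.61) and day 7 (-1.04) were falls, and that to day 4 was -0.00 ± 0.09. The step to day 5 (-0.27 ± 0.09, adjusted p = 0.0228) lost the threshold in 3 of the 6 fits that left out a library of either day, with adjusted p up to 0.182, and the step to day 3 in 2 of 6, with adjusted p up to 0.166. At day 7 Neurod4 kept 17.7% of its highest mean and was 55.9-fold above day 0 (5.80 ± 0.24, adjusted p = 2e-21). With 1 library left out that change ranged from 5.52 to 6.03.

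Neurod1 (chromosome 2, 79452521 to 79456751, minus strand, 2 exons) had the lowest highest level of the 7, 16.7 ± 0.491 TPM at day 2. Its values are uncertain: it shares exon sequence with Cerkl on the same strand, its deposited counts were not whole numbers in 8 of 36 libraries, unlike those of the other 7 genes, and Cerkl had mean levels of 0.523 to 2.17 TPM. It was the only proneural factor other than Hes6 with more than 1 TPM at day 0, at 3.27, 3.94 and 3.87 TPM. At day 0.5 it had 5.34, 4.70 and 5.69 TPM, above every day 0 library (0.52 ± 0.11, adjusted p = 0.00014). The fall to day 1 (-0.29 ± 0.11, adjusted p = 0.0236) did not pass in 4 of 6 fits without a library of either day, with adjusted p up to 0.138. Neurod1 rose at day 1.5 (1.32 ± 0.10) and day 2 (0.53 ± 0.09) and then stayed between 12.0 and 16.7 TPM in the mean until day 5. In that stretch 1 of 5 steps passed the test, that to day 3 (-0.33 ± 0.09, adjusted p = 0.0034). At day 6 the libraries held 4.74, 5.50 and 5.78 TPM, against 14.8, 11.7 and 12.6 TPM at day 5, 2.63-fold lower (-1.39 ± 0.10, adjusted p = 1.5e-13). The comparison of day 7 with day 0 gave -0.14 ± 0.11 in the counts (adjusted p = 0.233) and changed sign on the TPM scale, at 0.17 on log2(TPM + 1), so no direction is given.

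Nhlh1 (chromosome 1, 172052292 to 172057573, minus strand, 2 exons) and Nhlh2 (chromosome 3, 102010076 to 102015492, plus strand, 7 exons) encode closely related factors of newborn neurons. Nhlh1 had 64, 82 and 98 counts at day 0.5, against 12, 5 and 2 at day 0, and the ratio of the summed counts per library size was 12.8, with an exact 95% interval for counting error of 8.04 to 21.7. Its 4 steps to day 2 were all rises, of 3.66 ± 0.39, 2.10 ± 0.17, 1.72 ± 0.11 and 1.29 ± 0.09, and ended at 67.0, 66.7 and 69.2 TPM. The first of these rests on few counts at day 0, and without replicate 1 of day 0 it was 4.41. Nhlh2 had 18, 26 and 23 counts at day 0.5, against 3, 2 and 4 at day 0, a ratio of 7.44 (exact 95% interval 3.69 to 17.0). It was still at 1.18 ± 0.317 TPM at day 1 and 6.39 ± 0.509 TPM at day 1.5. The steep part came later than in Nhlh1, with 27.4 ± 1.42 TPM at day 2, 76.8 ± 4.88 TPM at day 2.5 and 92.5 ± 1.44 TPM at day 3. At day 2.5, Nhlh2 had 75.6, 72.6 and 82.1 TPM, against 28.6, 27.8 and 25.8 TPM at day 2 (1.43 ± 0.07, adjusted p = 2.1e-18), while Nhlh1 had 55.1, 50.7 and 57.3 TPM, against 67.0, 66.7 and 69.2 TPM at day 2 (-0.35 ± 0.09, adjusted p = 0.0015). For neither gene did the groups overlap. The Nhlh1 fall did not pass in limma on log2(TPM + 0.1), at -0.32 with an adjusted p of 0.155.

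After that Nhlh1 held a second broad high and Nhlh2 declined. Nhlh1 fell to 39.1 ± 3.29 TPM at day 3.5 (-0.59 ± 0.09, adjusted p = 5.2e-06), rose to 56.9 ± 5.81 TPM at day 4 (0.43 ± 0.09, adjusted p = 0.00038) and averaged 65.7 ± 9.10 TPM at day 5. The step to day 5 (0.24 ± 0.09, adjusted p = 0.0336) did not pass in 4 of 6 fits that left out a library of either day, with adjusted p up to 0.333. With day 3.5 left out, an alternative chosen after seeing the data, day 4 against day 3 gave -0.17 ± 0.09 (adjusted p = 0.162), so the dip at day 3.5 rests on that 1 time point. Without the libraries numbered 2, the highest Nhlh1 mean was that of day 5, 69.6 TPM. Nhlh2 changed by -0.28 ± 0.06 at day 3.5, -0.08 ± 0.06 (adjusted p = 0.341) at day 4 and -0.28 ± 0.06 at day 5. Its sharpest fall was at day 6, with 23.3, 24.7 and 28.5 TPM against 70.2, 59.1 and 60.0 TPM at day 5 (-1.41 ± 0.07, adjusted p = 8.3e-18, 2.65-fold lower). At day 7 Nhlh1 kept 46.6% of its highest mean and Nhlh2 20.7%, and against day 0 they were higher by 7.42 ± 0.23 and 7.93 ± 0.19 on the log2 scale, the Nhlh1 value being 8.16 without replicate 1 of day 0.

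Nhlh1 over Nhlh2, in TPM within each library, was 6.91 ± 1.55 at day 1, 3.92 ± 0.0864 at day 1.5 and 2.48 ± 0.181 at day 2, below 1 from day 2.5 to day 4 with its lowest mean, 0.514 ± 0.0532, at day 3.5, and 1.88 ± 0.0681 at day 6. Nhlh1 was therefore the more abundant of the pair both early and late. Neurod4 over Neurog2 went another way. It was 0.196 ± 0.0444 at day 0.5, between 0.488 and 0.673 in the mean from day 1.5 to day 3.5, 1.24 ± 0.110 at day 4 and 8.55 ± 0.634 at day 5.

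**Figure D3:**
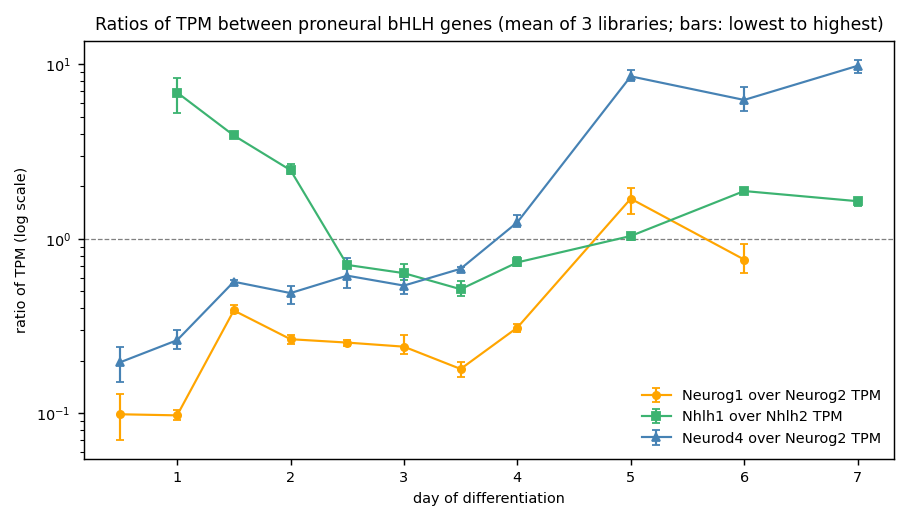
Ratio of TPM between 2 genes (vertical axis, log scale) against day (horizontal axis); symbols are means of 3 libraries, bars run from the lowest to the highest library, and days on which a library had under 0.5 TPM of either gene are left out. Neurod4 over Neurog2 is above 1 from day 4, Neurog1 over Neurog2 lies above 1 at day 5 alone, and Nhlh1 over Nhlh2 is below 1 from day 2.5 to day 4.

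Hes6 (chromosome 1, 91411483 to 91414038, minus strand, 11 exons over all annotated transcripts) differed in having a high level from the start, 27.2, 27.2 and 28.3 TPM at day 0. It fell at day 0.5, to 22.5, 21.4 and 19.5 TPM (-0.40 ± 0.07, adjusted p = 1.9e-05), in the step in which the other 6 genes tested rose. Hes6 rose at day 1.5 (0.36 ± 0.07), day 2.5 (0.46 ± 0.07), day 3 (0.36 ± 0.06) and day 4 (0.45 ± 0.06), with a fall at day 3.5 (-0.28 ± 0.07) between. The step to day 2 was -0.01 ± 0.07 and changed sign between scalings, from 0.01 with median-of-ratios size factors to 0.13 on log2(TPM + 1). Its highest mean was 74.7 ± 4.80 TPM at day 5, the latest of the 7, next to 72.8 ± 2.19 TPM at day 4, and the step between these days did not pass the test (0.06 ± 0.06, adjusted p = 0.467). Without the libraries numbered 1 the highest mean was that of day 4. Falls at day 6 (-0.37 ± 0.06) and day 7 (-0.25 ± 0.07, adjusted p = 0.0048) left 51.5 ± 0.967 TPM, 69.0% of the highest. With day 3.5 left out, day 4 against day 3 gave 0.17 ± 0.06 (adjusted p = 0.0325), which did not pass in 5 of 6 fits without a library of either day, with adjusted p up to 0.116.

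As the levels shifted, so did the mix. The summed TPM of the 8 genes was 32.1 ± 0.846 at day 0, 174.5 ± 3.94 at day 1.5, 400.2 ± 22.0 at day 3 and 119.4 ± 4.37 at day 7. Hes6 made up 85.8 ± 0.759% of the sum at day 0, 10.7 ± 1.27% at day 2 and 43.1 ± 0.944% at day 7. Neurog2 held the largest share from day 1 to day 3, at 40.1 ± 0.175% on day 1, Nhlh2 on days 3.5 and 4 with 27.4 ± 1.40% and 25.6 ± 0.886%, and Hes6 again from day 5. At day 7 Neurog1 and Neurog2 together with Neurod1 were each under 4% of the sum, at 0.673, 0.944 and 3.58%. TPM is a share of each library's transcripts, and the median change of all genes between day 7 and day 0 was 0.39 on log2(TPM + 0.1) against 0.05 in the counts, so TPM levels far apart in time carry a shift of that size.

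Counted per step, rises outnumbered falls in each step to day 2.5, and falls outnumbered rises at day 3.5 and from day 5 on. The step to day 3 had as many rises as falls, and the step to day 4 had more rises. At day 0.5 against day 0, 6 of the 7 genes tested were higher and 1 lower, where 27.6% of all genes tested were higher and 26.7% lower. At day 1 against day 0.5 the counts were 5 higher and 1 lower, against 23.3% and 24.3% of all genes. At day 1.5 against day 1 all 7 were higher, against 27.0% of all genes, and 0 were lower, against 19.4%. This was the 1 neighbouring step in which every tested gene of the cascade rose, with increases between 0.36 for Hes6 and 2.75 for Neurog1. At day 2 against day 1.5, 5 were higher and 0 lower, against 26.1% and 27.2%. At day 2.5 against day 2, 3 were higher (Nhlh2, Neurod4 and Hes6) and 1 lower (Nhlh1), against 24.9% and 22.9%, and at day 3 against day 2.5, 2 were higher (Hes6 and Nhlh2) and 2 lower (Neurod1 and Neurod4), against 18.1% and 16.3%.

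In neighbouring steps, falls outnumbered rises at day 3.5 and again from day 5 on. At day 3.5 against day 3, 6 of 7 were lower and 0 higher, against 19.8% and 21.0% of all genes, with Neurod1 the exception (-0.13 ± 0.09, adjusted p = 0.274). At day 4 against day 3.5, 2 were higher (Hes6 and Nhlh1) and 1 lower (Neurog2), against 19.4% and 20.8%. With day 3.5 left out, day 4 against day 3 gave 1 higher and 4 lower, against 17.1% and 19.1%, the 4 being Neurog2 (-1.74 ± 0.10), Neurog1 (-1.36 ± 0.12), Neurod4 (-0.52 ± 0.09) and Nhlh2 (-0.35 ± 0.06). The break in the falls at day 4 thus rests on the libraries of day 3.5. At day 5 against day 4, 1 was higher and 4 lower, against 21.2% and 16.8%. On log2(TPM + 0.1) limma gave 0 higher and 2 lower for that step, and the 1 higher, Nhlh1, held in 2 of 6 fits that left out a library of either day. At day 6 against day 5, 6 were lower and 0 higher, against 26.4% and 24.1%, Neurog2 being the exception (-0.12 ± 0.18, adjusted p = 0.623). At day 7 against day 6 all 7 were lower and 0 higher, against 8.95% and 11.3%. The Neurod1 call of that step (-0.30 ± 0.11, adjusted p = 0.0499) held in 1 of 6 fits that left out a library of either day, with adjusted p up to 0.184. Over the whole course, day 7 against day 0, 6 were higher and 0 lower, against 44.1% and 41.2%, and Neurog1 was at least 6.18-fold higher, against the same limit of 3 counts.

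**Figure D4:**
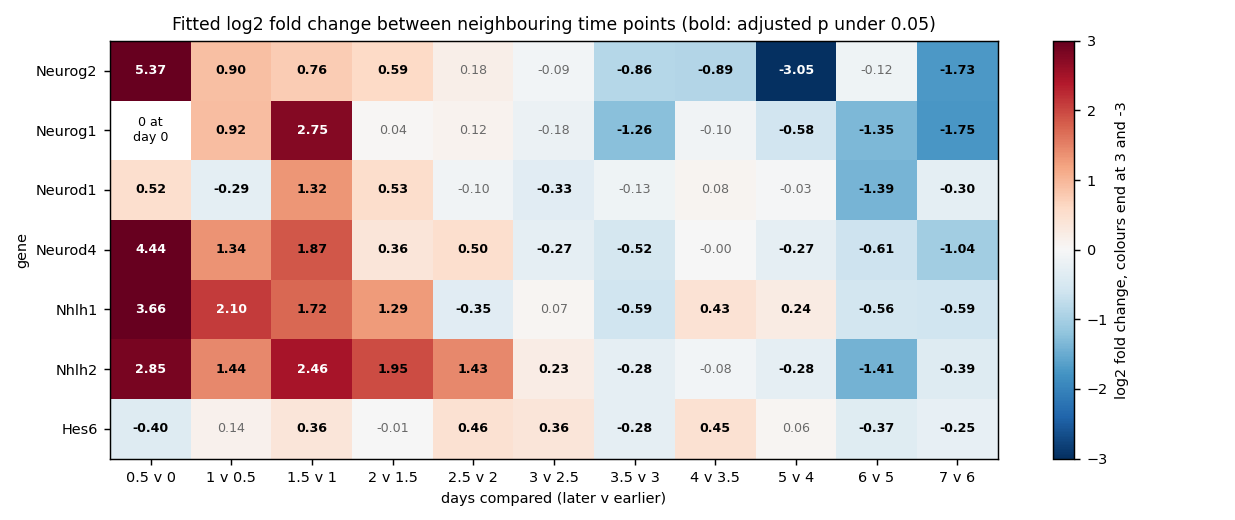
Fitted log2 fold change of 7 genes (rows) in the 11 steps between neighbouring time points (columns, later against earlier); red is higher and blue lower at the later time, bold values passed an adjusted p of 0.05, and the Neurog1 cell of the first step is blank because all day 0 libraries had 0 counts. The columns for day 1.5 against day 1 and day 7 against day 6 hold rises and falls in all 7 genes, and the Neurog2 value of -3.05 at day 5 stands out among the falls.

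The 3 E proteins, the dimer partners of the proneural factors, had means between 49.5 TPM (Tcf4 at day 1.5) and 202 TPM (Tcf3 at day 1.5) over the course, and their largest neighbouring steps were 0.50 ± 0.05 for Tcf4 at day 2 (81.4 TPM, against 49.5 TPM at day 1.5), -0.45 ± 0.05 for Tcf3 at day 6 (102 TPM, against 130 TPM at day 5) and 0.32 ± 0.04 for Tcf12 at day 0.5 (102 TPM, against 75.2 TPM at day 0). All 3 passed the test in those steps. At day 7 against day 0 the list had 2 higher and 1 lower, where 44.1% of all genes tested were higher and 41.2% lower.

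Of 11 inhibitors of proneural activity, 10 were higher and 1 lower at day 0.5 against day 0, where 27.6% of all genes tested were higher and 26.7% lower, with a median log2 change of 1.37 where that of all genes was 0.00. Hes5, a Notch target, had 150 TPM at day 0.5 against 4.00 TPM at day 0 (5.32 ± 0.13), Hey2, another Notch target, 8.10 against 1.06 TPM (2.93 ± 0.17) and Id2, which binds and blocks E proteins, 46.0 against 7.55 TPM (2.58 ± 0.09). At day 1.5 against day 1, 3 of the 11 were higher and 6 lower, where 27.0% of all genes tested were higher and 19.4% lower, so the higher share was at the background. Hes3, a bHLH repressor of neural progenitors, was among the lower ones, at 0.0467 TPM against 0.717 TPM at day 1 (-4.32 ± 0.57, and -5.18 without replicate 1 of day 1.5). Most of the Hes3 level had gone a step earlier. It was 5.03 TPM at day 0 and 9.80 TPM at day 0.5, and fell to that day 1 level by -3.89 ± 0.26 (adjusted p = 2.5e-14). Hes5 shares exon sequence with a gene on the opposite strand, and since the sources used here do not say whether counting used strand, its reads cannot be told apart from those of that gene.

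Among 19 genes known as downstream of proneural factors, 12 were higher and 1 lower at day 0.5 against day 0, where 27.6% of all genes tested were higher and 26.7% lower. At day 1.5 against day 1, 18 were higher and 0 lower, against 27.0% and 19.4% of all genes, and at day 2 against day 1.5, 14 were higher and 1 lower, against 26.1% and 27.2%. Their median log2 change was 1.11 at day 1.5 against day 1, where that of all genes was 0.03. St18, a zinc finger factor of differentiating neurons, had 3.04 TPM at day 1.5 against 0.357 TPM at day 1 (4.73 ± 0.21), and Dcx, a microtubule protein of migrating neurons, 15.9 TPM at day 2 against 2.00 TPM at day 1.5 (2.94 ± 0.12). Ebf2, a factor of differentiating neurons, had 2.17 TPM at day 0.5 against 0.123 TPM at day 0 (4.10 ± 0.17), and Dll4, a Notch ligand, 1.49 against 0.267 TPM (2.45 ± 0.23). Ebf2 and Dll4 overlap genes on the opposite strand, with the same limit as for Hes5. At day 3.5 against day 3, 11 were lower and 3 higher, against 19.8% and 21.0% of all genes. At day 6 against day 5, 13 were lower and 1 higher, against 26.4% and 24.1%, and at day 7 against day 6, 10 were lower and 2 higher, against 8.95% and 11.3%. Dcx, one of the list, averaged 192 ± 14.1 TPM at day 5, 215 ± 29.9 TPM at day 6 and 212 ± 3.01 TPM at day 7.

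Other bHLH factors of neural tissue kept their own times. Of 13 listed, 11 were tested, and 5 were higher and 2 lower at day 0.5 against day 0, where 27.6% of all genes tested were higher and 26.7% lower. Olig2, which marks motor neuron progenitors, had 21.7 TPM at day 0.5 against 0.107 TPM at day 0 (7.65 ± 0.29), and Olig3, known from dorsal and most ventral progenitors, 10.3 against 0.18 TPM (5.82 ± 0.27). The Olig3 level did not last: at day 1 it was 0.42 TPM (-4.58 ± 0.23, adjusted p = 2e-17), whereas Olig2 had risen to 104.6 TPM. Olig2 was at its highest mean, 180 ± 15.2 TPM, at day 2, but its step from day 1.5 did not pass the test (-0.04 ± 0.10, adjusted p = 0.767). The means of Neurog1 and Neurog2 were highest at day 2.5, and their steps from day 2 did not pass either. The order of these highest levels is therefore not settled. At day 6 against day 5, 6 of these 11 were higher and 3 lower, where 24.1% of all genes tested were higher and 26.4% lower, so the lower share was near the background. Neurod2 had 4.38 TPM at day 6 against 0.203 TPM at day 5 (4.32 ± 0.29), and Neurod6, listed at 0 TPM in all libraries to day 5, had a mean of 1.14 TPM at day 6, at least 12.1-fold above a limit of 3 counts in each day 5 library. Both are NeuroD family members of more mature neurons. Neurog3, the third neurogenin and best known from the endocrine pancreas, is named here after its values were seen, because its levels passed those of the proneural genes described above. It averaged 0.613 ± 0.197 TPM at day 2.5, 10.9 ± 2.98 TPM at day 3, 13.0 ± 0.925 TPM at day 3.5, 72.9 ± 12.8 TPM at day 4, 177.7 ± 21.4 TPM at day 5, 122.5 ± 4.77 TPM at day 6 and 57.4 ± 2.27 TPM at day 7. At day 5 its libraries held 201.6, 160.1 and 171.3 TPM, against 78.3, 82.0 and 58.3 TPM at day 4 (1.31 ± 0.10, adjusted p = 3.2e-12), in the step in which Neurog1 and Neurog2 fell. Neurog3 therefore outlasted Neurog1 and Neurog2 in these libraries, and it shares exon sequence with Fam241b on the opposite strand, with the same limit as for Hes5.

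**Figure D5:**
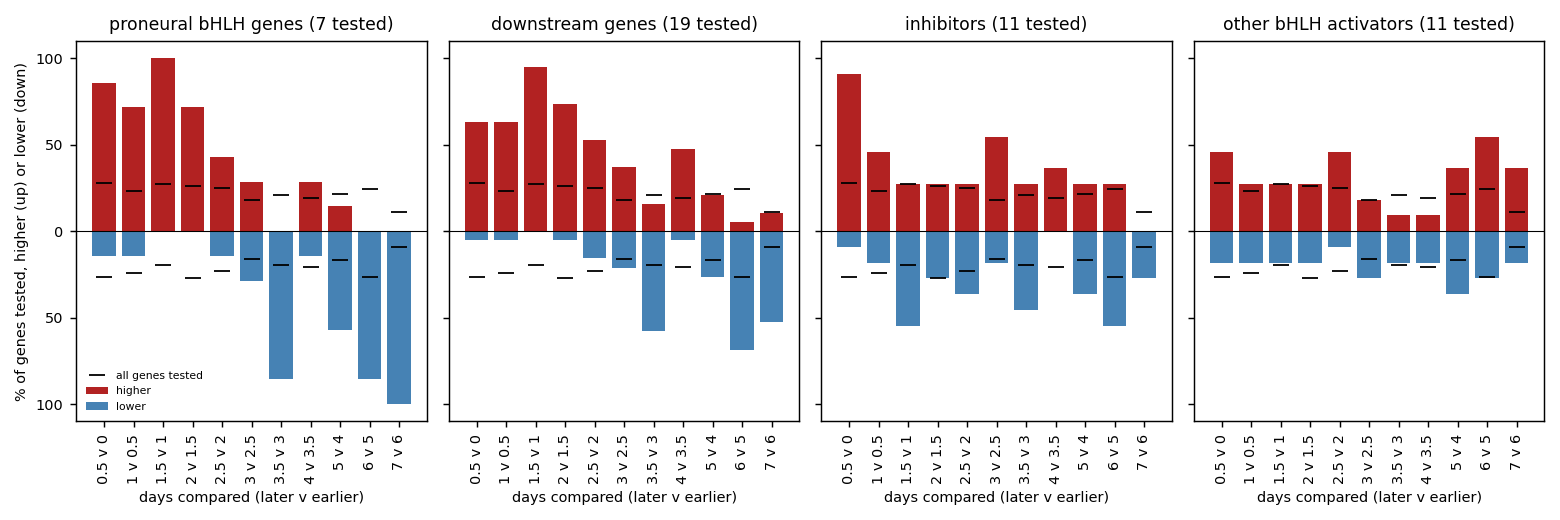
Share of the tested genes of 4 lists (vertical axis, percent) that were higher (up, red) or lower (down, blue) at an adjusted p under 0.05 in each step between neighbouring time points (horizontal axis, later against earlier); black ticks give the same shares of all 17990 genes tested. In the proneural genes the red bar reaches all 7 at day 1.5 against day 1 and the blue bar all 7 at day 7 against day 6, and 18 of 19 downstream genes were higher at day 1.5 against day 1. The panel headed other bHLH activators shows the list of other bHLH factors, whether or not each of them activates transcription.

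By their course over the 12 time points, the proneural genes resembled each other to different degrees. The correlations were taken between mean log2(TPM + 1) profiles of 12 points that share their libraries, and they describe these courses only. Neurod4 and Nhlh1 were most alike (Pearson r = 0.951), followed by Nhlh1 and Nhlh2 (0.920) and Neurog1 and Neurod1 (0.913). Neurog2 and Hes6 were least alike (r = -0.082). Neurog1 and Neurog2 had r = 0.879. Among 11989 genes with a mean of 5 TPM or more at some time point, the 3 most like Neurog1 were Ppp1r14a (r = 0.982), Mfng (0.964) and Mecom (0.957), those most like Neurog2 were Wdr83 (0.969), Pcbp4 (0.966) and Slc7a6 (0.966), and those most like Neurod1 were Chrna3 (0.962), Plk3 (0.957) and Lhx3 (0.953). Neurod4 was most like Hoxb4 (0.980), Hs6st1 (0.980) and Ebf2 (0.975), and Hes6 most like Cnn3 (0.984), Idnk (0.980) and Slc37a1 (0.975). Nhlh1 was most like Tspan14 (0.984), Sh3pxd2b (0.980) and Accs (0.979), and Nhlh2 most like Gamt (0.991), Hoxd3os1 (0.987) and Srrm4 (0.984). Of these, Mfng and Ebf2 were in the list of downstream genes and Lhx3 in that of motor neuron markers. Mecom, Wdr83, Pcbp4, Plk3, Lhx3, Hs6st1, Ebf2, Cnn3, Slc37a1, Hoxd3os1 and Srrm4 share exon sequence with genes on the opposite strand, so their own values are uncertain without strand.

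Replicates were close. Over the time points with a mean of 5 TPM or more, the median coefficient of variation was lowest for Hes6 (4.15%) and highest for Neurod1 (9.58%), and the widest single spread was 22.8%, for Neurog1 at day 5, where replicate 2 had 4.82 TPM and the others 7.58 and 7.16 TPM.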

How the data were processed

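The submitters' processing notes name bcl2fastq 2.20.0, RSEM and the build GRCm38. Aligner, annotation release and strand setting are not given in the sources here. The authors deposited 1 table of expected counts per gene, 6.87% of whose values are not whole, and 1 table of TPM. Gene symbols came from a table of Ensembl IDs, which matched 51633 of 51912 IDs, and positions and exon overlaps from GENCODE M21. Expected counts were rounded, genes with low counts were removed with edgeR's filterByExpr (17990 of 32047 genes with a count were left, 7 of the 8 proneural genes among them), and TMM factors ran from 0.924 to 1.06. The main test was edgeR 4.0.16's quasi-likelihood test in R 4.3.3, with 12 groups, 24 residual degrees of freedom and Benjamini-Hochberg adjustment at 0.05. The SE printed is the log2 fold change over the square root of F and is approximate. Levels and ratios are the deposited TPM. Replicate pairs differed beyond counting noise (a chi-square of 3.13 to 54.1 for each degree of freedom), and none were identical. The script was tested on simulated counts. Named were all 8 proneural genes and, from each of 4 pathway lists, up to 4 called genes with the largest change in a neighbouring step. The genes and lists were chosen with earlier results of these data known. Alternatives were DESeq2 1.42.0, median-of-ratios size factors, no filter, the 6 libraries of a comparison alone, limma 3.58.1 on log2(TPM + 1) and log2(TPM + 0.1) for 16584 genes with 1 TPM or more in 3 libraries, a replicate block, and each library left out. Day 4 against day 3 was added after seeing the data.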

Additional observations from a re-analysis of the deposited data

How the results depend on the processing

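Of 1183 recomputed values of the 7 tested genes, 1107 kept their direction and their side of the threshold, 37 lost the threshold, 6 gained it and 33 changed sign. The changes of sign were all in steps that did not pass the test. Hes6 at day 2 against day 1.5 gave 0.006 with median-of-ratios scaling and with DESeq2, 0.003 with the 6 libraries alone, and 0.130 and 0.134 in limma with pseudocounts of 1 and 0.1, with -0.036 to 0.079 when 1 library was left out. Neurod4 at day 4 against day 3.5 gave 0.017 with median-of-ratios scaling and with DESeq2, 0.000 with the replicate block, 0.106 and 0.108 in limma, and -0.044 to 0.055 without 1 library. In limma, with pseudocounts of 1 and 0.1, Neurog1 and Nhlh2 at that step gave 0.015 and 0.017, and 0.023 and 0.024, Neurod1 gave 0.171 and 0.210 at day 7 against day 0, and 0.057 and 0.061 at day 4 against day 3. With 1 library left out the ranges were -0.178 to 0.011 for Neurog2 and -0.027 to 0.143 for Nhlh1 at day 3 against day 2.5, -0.008 to 0.164 for Neurod1 at day 4 against day 3.5, -0.141 to 0.052 for Neurod1 at day 5 against day 4, -0.135 to 0.036 for Neurod1 at day 4 against day 3, and -0.334 to 0.054 for Neurog2 at day 6 against day 5. Counts of proneural genes called moved as follows. In limma with a pseudocount of 0.1, 0 were lower at day 2.5 against day 2, 1 higher, 1 lower and 2 in all at day 3 against day 2.5, and 0 higher, 2 lower and 2 in all at day 5 against day 4. With a pseudocount of 1, 1 was lower at day 3 against day 2.5 and 0 were higher at day 5 against day 4, as with the 6 libraries alone. Without the filter, 1 gene, Atoh1, was lower at day 7 against day 0. Without 1 library, 0 to 1 were lower at day 1 against day 0.5, 1 to 2 lower at day 3 against day 2.5, 0 to 1 higher and 3 to 4 in all called at day 5 against day 4, and 0 to 1 higher at day 4 against day 3. The cause of these moves was not tested. On the log2(TPM + 1) scale the folds of genes near 0 were smaller, as that pseudocount makes them (1.30 for Nhlh1 at day 0.5 against day 0). On the TPM scale with a pseudocount of 0.1 the split of all calls moved by over 10 percentage points in 7 of 13 comparisons, most at day 4 against day 3.5, with 4533 higher and 1494 lower against 3499 and 3734 in the counts, and with a pseudocount of 1 in 6 of 13; median-of-ratios scaling and DESeq2 moved it so in 0 of 13. Same-numbered libraries did not deviate together (correlations from -0.0735 to 0.0801, 0 of 36 over 0.1, and 11 of 36 libraries correlated best with their own number), so they share only a number. The replicate block changed 1 call of a proneural gene, Neurod1 at day 7 against day 6 (adjusted p = 0.054). Depth limits Atoh1 throughout and Neurog1, Neurod4, Nhlh1 and Nhlh2 at day 0, which had at most 13 counts in a library.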
